A study of Rattus norvegicus with 9 samples.

Results

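Amino acid transporters move amino acids, and related molecules such as taurine and creatine, across cell membranes. The members here are the genes of the rat array whose names begin with Slc1a, Slc3a, Slc6a, Slc7a, Slc36a, Slc38a or Slc43a, without Slc6a12 and Slc7a11. They came to 60 gene names with 74 probes, of 26115 gene names and 30367 gene probes on the array. A prefix is not a function, and some members carry no amino acids: Slc43a3 is a nucleobase transporter, and Slc7a6os is named only for lying opposite Slc7a6.

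The kidneys came from Fisher F344 rats in a model of donation after circulatory death. The 5 NP kidneys went through warm ischaemia for 20 min. and received no perfusion. The 4 MSC kidneys went through the same warm ischaemia, after which Belzer solution was passed through them in the cold (4°C) for 4 hrs, and this solution held 3000000 mesenchymal stromal cells from the bone marrow of Sprague Dawley rats carrying an EGFP transgene. The labels are divided on the controls, since their treatment field calls them not perfused and their titles name a perfusion with Belzer solution. They are called NP here. Perfusion and cells were given together, so that their effects cannot be told apart. Each array measured 1 kidney, on 2 slides, of which the first held NP 1, 2 and 3 with MSC 1 and 2, and the second NP 4 and 5 with MSC 3 and 4.

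In the kidney, nearly all filtered amino acids are taken back in the proximal tubule. Transporters of the apical membrane draw them from the tubular fluid, and others in the basolateral membrane pass them on to the blood. Some of them are heterodimers: a heavy chain, Slc3a1 (rBAT) or Slc3a2 (4F2hc), brings a light chain of the Slc7 family to the membrane. Slc3a1 pairs with Slc7a9 and with Slc7a13 on the apical side, and Slc3a2 with Slc7a7 and Slc7a8 on the basolateral side. Loss of Slc3a1 or Slc7a9 gives cystinuria, loss of Slc6a19 Hartnup disease and loss of Slc7a7 lysinuric protein intolerance.

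Of the 60 members, 33 had a probe that passed the filter on low signal and were tested among 13929 genes. All intensities below are normalized log2 values of the labelled RNA that bound to a probe, and no result sets the levels of different probes against each other. No probe of a member was saturated. The tissue label was met by its markers: all 10 genes of the proximal tubule list passed the filter, with a median log2 fold change (MSC minus NP) of 0.13. Across the arrays, 65.6% to 74.3% of the gene spots were well above background, with a median raw intensity of 577 to 917 against 217 to 237 for the negative controls.

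In limma 0 members reached both thresholds, an FDR under 0.05 and more than a 1.5-fold difference, and neither did any other gene (0% of all genes in either direction). At an unadjusted p under 0.05, 7 of the 33 members were higher in MSC-perfused kidneys (21.2%, against 6.6% of all genes) and 1 was lower (3.03%, against 5.1%). The 7 were Slc43a2, Slc7a8, Slc3a2, Slc7a7, Slc1a5, Slc38a9 and Slc1a3, and the lower member was Slc38a5. The smallest FDR of a member was 0.333, for Slc43a2. The median log2 fold change was 0.10 over the members and -0.01 over all genes, and 21 of 33 members had a value above 0 (63.6%, against 48.6%). Without background subtraction, all fold changes lay between 0.697 and 1.44, so that no member reached 1.5-fold (0.976% of all genes did upward and 1.21% downward). This depended on the background: with the scanner's background-subtracted signal the log2 fold changes of Slc1a3 (0.92), Slc43a2 (0.62), Slc38a9 (0.61) and Slc38a5 (-0.86) were past 1.5-fold, and with normexp correction those of Slc1a3 (0.67) and Slc38a5 (-0.60). Of the 33 members, 5 were over the filter's threshold on the required 4 arrays only in the group where they were higher, Slc38a9 in MSC and Slc38a5, Slc38a1, Slc1a4 and Slc6a9 in NP kidneys. The filter favoured a difference in these, and without them 6 of 28 members were higher and 0 lower at an unadjusted limma p under 0.05. The share of all genes was not taken with the same exclusion, so these counts have no share to be read against. With median scaling of the arrays 1 member was higher, Slc1a3, and 2 were lower, where the shares of all genes were 2.07% and 4.03%. In bulk tissue, fewer cells of a type and less RNA in each cell cannot be told apart.

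**Figure D1:**
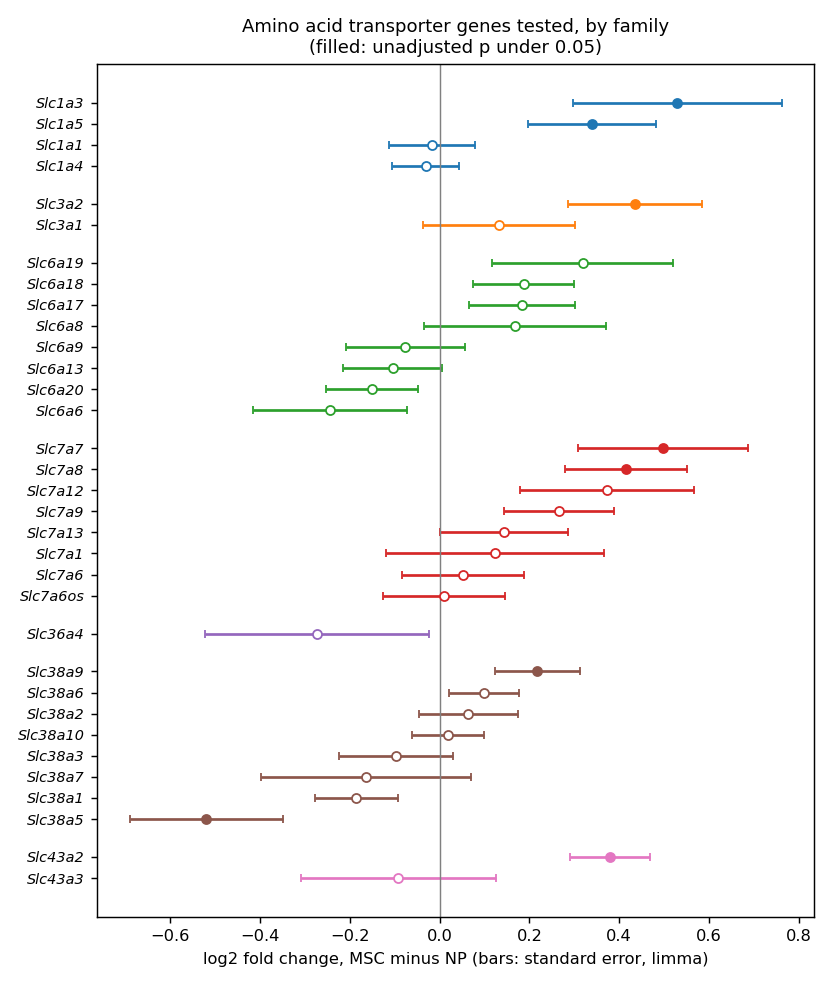
The log2 fold change of each of the 33 tested members (MSC minus NP, horizontal axis) with its standard error from limma, grouped and coloured by family. Filled points have an unadjusted p under 0.05: 7 lie to the right of 0 and Slc38a5, at -0.52, lies to the left, while all 8 members of the Slc7a family lie to the right.

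The families differed in how many members could be tested and in their middle value. Slc7a had 8 of 15 members tested, all 8 with a fold change above 0 (48.6% of all genes were), a median of 0.21 on the log2 scale and 2 members at an unadjusted p under 0.05. The 8 include Slc7a6os, at 0.01, and Slc7a1, which turned to -0.04 without NP 4. In the Slc3a family both heavy chains were tested, with a median of 0.28. Slc1a had 4 of 7 members tested (median 0.16, 2 at that p) and Slc43a 2 of 3 (median 0.14, 1 at that p). Slc6a, the sodium and chloride coupled carriers, had 8 of 18 tested with a median of 0.05 and 0 members at an unadjusted limma p under 0.05. Slc38a had 8 of 11 tested with a median of -0.04, 1 higher and 1 lower. Of Slc36a only Slc36a4 was tested, 1 of 4, with -0.27. Beside these stands the share of all genes at that p, 6.6% higher and 5.1% lower.

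The probes that read 4 of the members are shown next. In the 3 members with 2 passing probes, Slc43a2, Slc6a18 and Slc36a4, the choice of probe decided whether the groups overlapped. They are 60 bases long and are placed by the array files on the rat build rn4; they are written 5′ to 3′ in lower case as the files give them.
Slc3a2: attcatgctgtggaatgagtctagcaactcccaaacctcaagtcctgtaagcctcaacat
Slc7a7: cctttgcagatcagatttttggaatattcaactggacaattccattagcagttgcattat
Slc43a2: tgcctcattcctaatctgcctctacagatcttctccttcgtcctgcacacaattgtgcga
Slc6a18: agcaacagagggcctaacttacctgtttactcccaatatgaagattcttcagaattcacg
The Slc3a2 probe lies at chr1:211376528-211376587 and the Slc7a7 probe at chr15:32435500-32435559, both on the minus strand. The Slc43a2 probe lies at chr10:62887615-62890103 and the Slc6a18 probe at chr1:30420374-30421525, both on the plus strand. These last probes cover 2489 and 1152 bases of the genome with 60 bases, so each crosses a splice junction. Slc7a8 was read at chr15:32800977-32801036, minus strand. An exon annotation of that build was not used here.

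The basolateral group held the most members with small p-values: 4 of its 5 tested members were higher at an unadjusted p under 0.05 (6.6% of all genes were), and its median log2 fold change was 0.42. The basolateral carrier Slc16a10, at 0.10, is no member. Slc7a6 (y+LAT2), also a partner of Slc3a2, was listed with the carriers used for growth; it had 0.05, and its r with Slc3a2 was -0.20 over the 9 arrays. Beside it, the apical group had 7 of 8 members tested, 0 at an unadjusted limma p under 0.05 and a median of 0.14. The roles were assigned with earlier results of these data known, so the counts describe the lists and support nothing further.

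Slc3a2 is the heavy chain of the basolateral exchangers. Its log2 intensity was 14.66, 14.06, 14.50, 14.73 and 14.86 in NP 1 to 5 and 15.04, 14.96, 15.10 and 14.89 in MSC 1 to 4. All 4 MSC kidneys were above all 5 NP kidneys, which held for 2 members (6.06%) and for 3.13% of all genes. The mean was 14.56 ± 0.31 (SD, n = 5) for NP and 15.00 ± 0.09 (SD, n = 4) for MSC, and MSC kidneys were higher by 0.44 on the log2 scale (standard error 0.15, limma adjusted p = 0.341, exact permutation p = 0.0159).

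Slc7a7 (y+LAT1) exchanges basic amino acids for neutral ones with sodium. It read 12.45, 12.11, 12.43, 12.54 and 13.04 in NP 1 to 5 and 13.14, 13.02, 13.28 and 12.60 in MSC 1 to 4. MSC 4 was low among its group and NP 5 high among its own, so that the groups overlapped. Its log2 fold change came to 0.50 (standard error 0.19, limma adjusted p = 0.385, exact permutation p = 0.0556).

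Slc7a8 (LAT2) exchanges neutral amino acids. It read 14.51, 14.45, 14.50, 14.89 and 15.05 in NP 1 to 5 and 15.00, 15.21, 15.16 and 15.00 in MSC 1 to 4. The 3 NP kidneys of the first slide were the lowest of the 9, and NP 5 was inside the range of the MSC kidneys. The log2 fold change was 0.42 (standard error 0.14, limma adjusted p = 0.335, exact permutation p = 0.0556).

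Slc43a2 (LAT4) is a carrier that lets branched-chain amino acids, phenylalanine and methionine leave the cell without exchange. It read 9.66, 9.39, 9.56, 9.59 and 9.71 in NP 1 to 5 and 10.00, 10.01, 10.04 and 9.80 in MSC 1 to 4, again with no overlap. The difference was 0.38 on the log2 scale (standard error 0.09, limma adjusted p = 0.333), with an exact two-sided permutation p of 0.00794, the smallest that 9 arrays allow. Another probe of the gene, at chr10:62894174-62894233, read 12.04, 11.97, 11.63, 11.96 and 12.22 in NP 1 to 5 and 12.29, 12.08, 12.31 and 12.03 in MSC 1 to 4. There the groups overlapped and the log2 fold change was 0.21 when this probe stood for the gene. The direction was the same in both probes.

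Slc38a3 (SNAT3), which takes glutamine into the tubule cell for ammonia production, was the fifth of the group. It had a log2 fold change of -0.10 (standard error 0.13, limma adjusted p = 0.790, exact permutation p = 0.540), with overlapping groups from 11.53 to 12.08 in NP and from 11.42 to 11.75 in MSC samples. It was -0.01 without NP 3 and -0.03 without MSC 3.

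**Figure D2:**
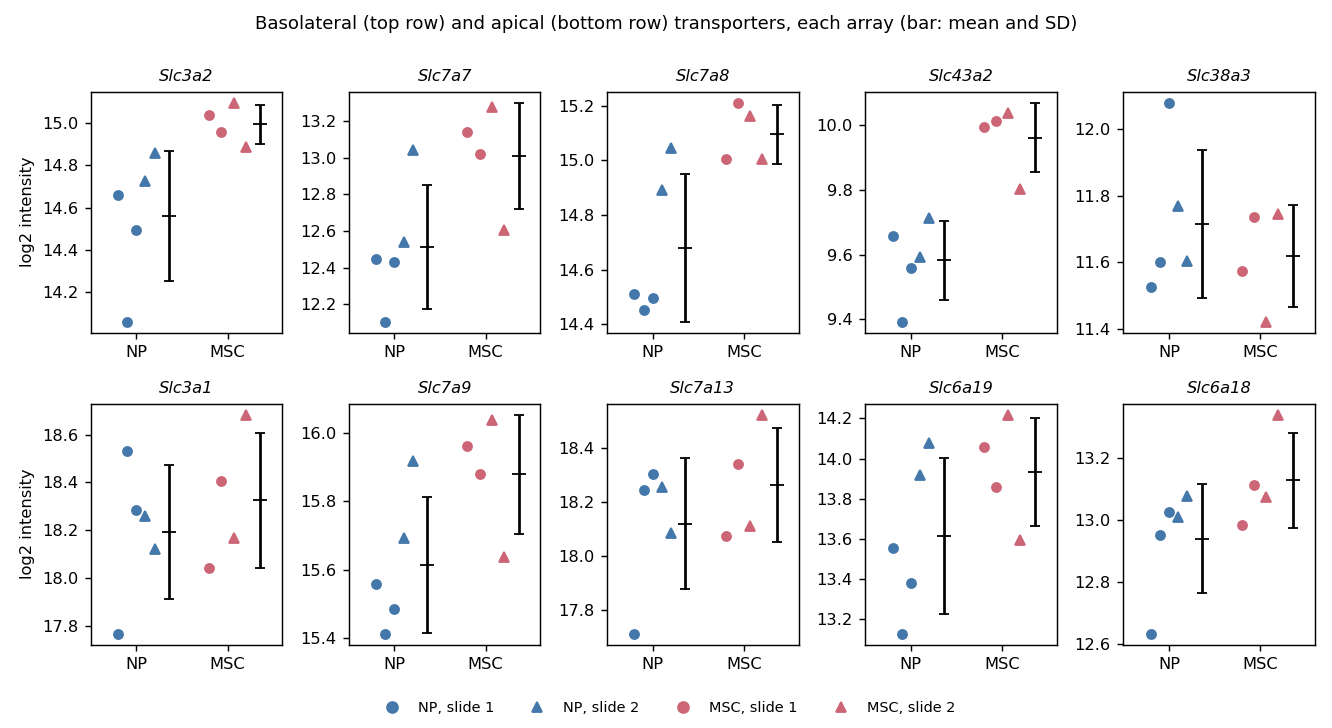
Normalized log2 intensity (vertical axis, on a scale of its own in each panel) of 5 basolateral and 5 apical transporters in every kidney, by group on the horizontal axis. Circles are arrays of the first slide, triangles of the second, and the bar gives the mean and SD. MSC and NP values do not overlap for Slc3a2 and Slc43a2, and in Slc7a7, Slc7a8, Slc7a9 and Slc6a19 the 3 NP circles sit at or near the bottom.

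The apical heavy chain and its partners had smaller differences between the groups. Slc3a1 read 17.77, 18.53, 18.28, 18.26 and 18.12 in NP 1 to 5 and 18.04, 18.40, 18.17 and 18.68 in MSC 1 to 4, a log2 fold change of 0.13 (standard error 0.17, limma adjusted p = 0.787). NP 1 was the lowest and MSC 4 the highest, and the groups overlapped. The value was 0.03 without NP 1 and 0.01 without MSC 4, and 0.22 without NP 2 and 0.23 without MSC 1. Slc7a13 (AGT1), the aspartate, glutamate and cystine carrier of the straight proximal tubule, ranged from 17.71 to 18.30 in NP and from 18.08 to 18.52 in MSC samples, with a log2 fold change of 0.14 (limma adjusted p = 0.717, exact permutation p = 0.421), and 0.04 without NP 1 and 0.06 without MSC 4. Over the 9 arrays Slc7a13 had a Pearson's r of 0.94 with Slc3a1. Slc7a9, the light chain of the cystine carrier, had a log2 fold change of 0.27 (standard error 0.12, limma adjusted p = 0.438, exact permutation p = 0.0794), and its r was -0.26 with its partner Slc3a1 and 0.98 with Slc7a7. Its values were 15.56, 15.41, 15.48, 15.69 and 15.92 in NP 1 to 5 and 15.96, 15.88, 16.04 and 15.64 in MSC 1 to 4. These are descriptions over 9 arrays that share 2 slides and 2 groups.

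Slc6a19 (B0AT1), the main apical carrier of neutral amino acids, read 13.55, 13.13, 13.38, 13.92 and 14.08 in NP 1 to 5 and 14.06, 13.86, 14.22 and 13.59 in MSC 1 to 4. Its log2 fold change was 0.32 (standard error 0.20, limma adjusted p = 0.553, exact permutation p = 0.214), and the groups overlapped. It was 0.20 without NP 2 and 0.11 with array weights. Tmem27 (collectrin), which carries Slc6a19 to the brush border, had a log2 fold change of 0.20 (limma adjusted p = 0.477). Slc6a20, the carrier of proline, had -0.15 (exact permutation p = 0.175), and Slc1a1 (EAAC1), the carrier of glutamate and aspartate, had -0.02 (exact permutation p = 0.857). Slc6a20 was -0.08 without NP 3, and Slc1a1 turned sign without NP 4 (0.05) or MSC 3 (0.01).

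Slc6a18 (B0AT3), the neutral amino acid carrier of the later proximal tubule, gave opposite signs in its probes. The probe shown above read 12.63, 12.95, 13.02, 13.01 and 13.08 in NP 1 to 5 and 12.98, 13.11, 13.07 and 13.34 in MSC 1 to 4, a log2 fold change of 0.19 (limma adjusted p = 0.532, exact permutation p = 0.127). The other, at chr1:30428989-30429048, read between 15.86 and 15.98 in NP and between 15.77 and 15.83 in MSC kidneys, where every MSC value was below every NP value. Its log2 fold change was -0.11 when this probe stood for the gene. No direction can be given for the gene.

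The 4 higher basolateral genes were also compared within each slide. Within the first slide the log2 fold change was 0.59 for Slc3a2, 0.75 for Slc7a7, 0.62 for Slc7a8 and 0.47 for Slc43a2. Within the second slide the same genes had 0.20, 0.15, 0.11 and 0.27, from 2 arrays a group. The direction was kept in both slides, while for Slc6a19 it was 0.60 in the first and -0.09 in the second, and for Slc7a9 0.44 and 0.03. With the slide as a block the 4 basolateral genes were still at an unadjusted limma p under 0.05, at log2 fold changes of 0.41, 0.48, 0.39 and 0.38 in the order above. With array weights the values were 0.30, 0.35, 0.25 and 0.35, and Slc7a7 and Slc7a8 were no longer at that p. With median scaling they were 0.37, 0.45, 0.35 and 0.18, and none of the 4 was at that p in limma. There the other probe of Slc43a2 stood for the gene, so that its scaling and its probe changed together. The difference between the slides was not tested.

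**Figure D3:**
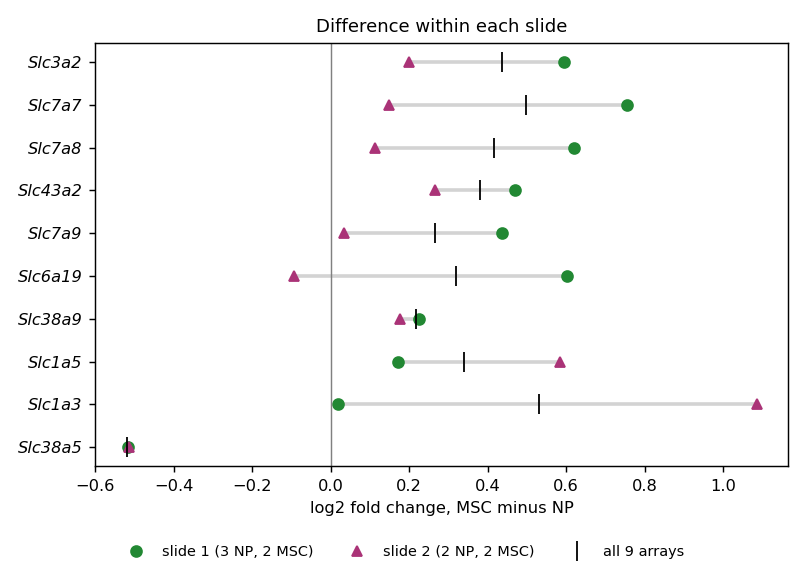
The log2 fold change (MSC minus NP, horizontal axis) of 10 members within the first slide (circles, 3 NP and 2 MSC arrays), within the second slide (triangles, 2 NP and 2 MSC arrays) and over all 9 arrays (bars). The basolateral genes lie further right on the first slide, Slc1a3 and Slc1a5 on the second, and Slc38a5 gave the same value, between -0.52 and -0.51, on both.

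Beside the members, Slc5a2 (SGLT2), the glucose carrier of the first part of the proximal tubule, was the only 1 of the 10 proximal tubule genes at an unadjusted limma p under 0.05, and 4 of the 10 had a log2 fold change below 0. It had a log2 fold change of 0.44 (standard error 0.13, limma adjusted p = 0.335), with all MSC values above all NP values. It read 17.04, 16.60, 16.72, 16.98 and 17.23 in NP 1 to 5 and 17.34, 17.34, 17.44 and 17.29 in MSC 1 to 4. Slc3a2 followed it over the 9 arrays with a Pearson's r of 0.96 and a Spearman's rho of 0.98. Without NP 2 and NP 3, the arrays farthest from the median of Slc5a2, r was 0.95. In all, 7 of the 33 members had an r over 0.8 with Slc5a2 (21.2%), against 4.06% of all genes. They were Slc3a2, Slc43a2, Slc7a8, Slc7a7, Slc7a9, Slc38a9 and Slc6a19. With each group's mean taken off, 5 of the 33 remained over 0.8, against 2.54% of all genes. Without NP 2 and NP 3, r stayed between 0.76 and 0.93 for 4 of the other 6, and was 0.59 for Slc38a9 and 0.49 for Slc6a19. In the same arrays the list of the straight part of the proximal tubule (8 genes) had a median log2 fold change of -0.07, with 0 genes at an unadjusted limma p under 0.05. Slc5a2 was picked for this after its values were seen, no test was run, and its part in the results of the transporters was not tested.

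Some genes of the later nephron segments were also higher in MSC kidneys at an unadjusted p, and 0 passed the FDR in limma. At an unadjusted limma p under 0.05 they were 3 of 6 tested genes of the thick ascending limb (median log2 fold change 0.29), 4 of 6 of the distal convoluted and connecting tubule (0.55), 3 of 6 of the principal cells (0.52) and 4 of 6 of the intercalated cells (0.64), against 6.6% of all genes. The others ranged from 0.67 for Klk1 down to -0.33 for Cldn16 of the thick ascending limb, with 0.15 for Umod, 0.11 for Aqp3, 0.08 for Slc4a1 and 0.03 for Trpm6. The summed intensity of the distal and connecting tubule list was 48370 to 135755 in NP and 124645 to 137552 in MSC kidneys, and that of the intercalated cell list 25698 to 43909 and 43463 to 55606. For the principal cell list it was 359450 to 439481 and 409993 to 593447, and for the thick ascending limb 268304 to 478028 and 353158 to 553213. Of the genes listed, Pvalb was well above background on 0 arrays and all the others on all 9. By mean log2 level, the distal, principal and intercalated lists were lowest in NP 2 and NP 3, which were also the lowest arrays for Slc5a2. The injured tubule list had 6 of 7 tested genes above 0 (48.6% of all genes were) with a median of 0.30, and Lcn2 at -0.23. In 2 of the 7, Krt8 (0.43) and Vim (0.43), every MSC value was above every NP value, which held for 3.13% of all genes. The summed intensity of this list was 63938 to 86343 in NP and 72792 to 89143 in MSC kidneys. The list of mesenchymal stromal cells had 5 of 6 tested genes above 0 (48.6% of all genes were) with a median of 0.52. In it 1 gene, Col1a1 (1.06), was at an unadjusted limma p under 0.05. The summed intensity of the stromal cell list was 20767 to 55504 in NP and 29956 to 61994 in MSC kidneys. The part of these cell types in the results of the transporters was not tested.

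Among the carriers that most cells use for growth, 6 of 10 were tested, 1 of them higher at an unadjusted p under 0.05 (6.6% of all genes were), and the median log2 fold change was 0.06. Slc1a5 (ASCT2), a sodium-dependent exchanger of glutamine and other small neutral amino acids, read 11.54, 11.67, 11.30, 10.90 and 11.35 in NP 1 to 5 and 11.58, 11.77, 11.72 and 11.70 in MSC 1 to 4. NP 4 was the lowest, and NP 2 alone among the controls lay inside the MSC range. Its log2 fold change came to 0.34 (standard error 0.14, limma adjusted p = 0.408, exact permutation p = 0.0476), with 0.17 in the first slide, 0.58 in the second and 0.23 without NP 4. Slc38a2 (SNAT2), an adaptive carrier that cells raise when amino acids are short, had 0.06 (exact permutation p = 0.563), its lowest value was NP 1, and the sign turned without MSC 1 (-0.01). Slc7a1 (CAT1), the carrier of arginine and lysine, had 0.12 (exact permutation p = 0.675), with values from 9.38 to 10.68 in NP and from 9.82 to 10.48 in MSC kidneys. Its sign rested on 1 array, with -0.04 without NP 4 against 0.29 without NP 1 and 0.42 with array weights. Slc38a1 had -0.19 (exact permutation p = 0.0714), Slc1a4 -0.03 and Slc7a6 0.05. Slc7a5 (LAT1), the partner of Slc3a2 in dividing cells, was well above background on all 9 arrays but did not pass the filter, with values from 8.46 to 9.01.

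Slc38a5 (SNAT5), a carrier of glutamine, asparagine, serine and histidine, had the lowest log2 fold change of the tested members. It was read at chrX:26244421-26244480 on the minus strand and gave 9.87, 9.09, 9.08, 9.32 and 9.27 in NP 1 to 5 and 8.59, 9.06, 8.66 and 8.91 in MSC 1 to 4. All 4 MSC kidneys lay below all 5 NP kidneys, by a margin of MSC 2 at 9.06 against NP 3 at 9.08. This held for 1 member (3.03%) and 2.13% of all genes. The log2 fold change was -0.52 (standard error 0.17, limma adjusted p = 0.335, exact two-sided permutation p = 0.0238), with -0.52 in the first slide and -0.51 in the second. It was over the filter's threshold on all 5 NP but only 2 MSC arrays, so that it too entered the test through the group where it was higher, and its p-values give no support to a difference.

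Red cell genes moved with Slc38a5. Of the 6 red cell genes listed, 3 could be tested. All 3 were lower in MSC samples at an unadjusted limma p under 0.05 (5.1% of all genes were). They were Alas2, the first enzyme of haem synthesis in red cell precursors, at -1.74, Hbb, the beta chain of haemoglobin, at -1.68 and Ahsp, the chaperone of the alpha chain, at -0.80. Among the others, Hbe1 was well above background on 0 arrays, and Hba-a2 is no name on the array. The summed intensity of the 3 genes was 16046 to 37956 in NP and 1923 to 26384 in MSC kidneys, lowest in MSC 1 and MSC 3. These were also the lowest arrays for Slc38a5. Over the 9 arrays r was 0.83 and rho 0.92. Without MSC 1 and MSC 3 r was 0.80, and with group means taken off it was 0.69. Without those 2 arrays the log2 fold change of Slc38a5 was -0.34, and the members higher at an unadjusted p under 0.05 were 1, Slc43a2, where 4.06% of all genes were. The part of red cells in the result was not tested.

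Of the lysosomal members, 3 of 5 were tested. Slc38a9, the lysosomal carrier that reports arginine to mTORC1, read 8.74, 8.46, 8.59, 8.81 and 8.74 in NP 1 to 5 and 8.90, 8.74, 9.003 and 8.89 in MSC 1 to 4. MSC 2 lay inside the range of the NP kidneys. Its log2 fold change came to 0.22 (standard error 0.09, limma adjusted p = 0.417, exact permutation p = 0.0397), with 0.22 in the first slide and 0.18 in the second. Its values lay near the log2 threshold of the filter, 8.71 to 8.78 over the arrays, and were over it on all 4 MSC but only 2 NP arrays. The gene therefore entered the test through the group where it was higher, and its p-values give no support to a difference. Slc38a7, the lysosomal exporter of glutamine and asparagine, had -0.16 (exact permutation p = 0.563), and Slc36a4, a carrier of proline and tryptophan, -0.27 (exact permutation p = 0.437). NP 1 was the lowest array for Slc38a7 at 10.55, and without it the fold change was -0.36 on the log2 scale. NP 2 was the highest for Slc36a4 at 10.59, against 9.15 to 9.85 in MSC kidneys, and without NP 2 the fold change was -0.07. Another probe of Slc36a4, at chr8:12533308-12533367, read 8.93 to 9.16 in NP and 8.85 to 8.90 in MSC kidneys, with every MSC value below every NP value and a difference of -0.18. Slc36a1, the proton-coupled exporter of the lysosome, did not pass the filter, with values from 8.48 to 8.82.

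The carriers of osmolytes and creatine were tested in full, with 0 of 3 at an unadjusted limma p under 0.05 (6.6% of all genes were higher and 5.1% lower), a number too small to describe the group. Slc6a8, the creatine transporter, had a log2 fold change of 0.17 (exact permutation p = 0.786) and read 17.15, 17.32, 16.21, 17.07 and 17.26 in NP 1 to 5 against 17.12 to 17.21 in MSC kidneys. NP 3 was low, and without it the fold change was -0.03. Slc6a6, the taurine transporter, had -0.24 (exact permutation p = 0.254), and Slc6a13 (GAT2), a carrier of GABA and taurine, -0.10 (exact permutation p = 0.357). Slc6a6 ranged from 12.04 to 12.82 in NP and from 11.95 to 12.39 in MSC samples, and was -0.13 without NP 2. Slc6a13 was -0.06 without NP 3, -0.05 without MSC 3 and -0.16 without MSC 4.

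Of 14 members known as carriers of transmitters and of brain amino acids, 3 were tested. Slc1a3 (GLAST), a glutamate carrier of glia that also occurs outside the brain, read 9.35, 8.89, 8.90, 8.72 and 8.93 in NP 1 to 5 and 8.99, 9.14, 10.21 and 9.61 in MSC 1 to 4. Its log2 fold change was 0.53 (standard error 0.23, limma adjusted p = 0.423, exact permutation p = 0.0794), and this rested on MSC 3 and MSC 4: it was 0.02 in the first slide, 1.09 in the second and 0.11 without those 2 arrays. Slc6a17 had 0.18 (exact permutation p = 0.167) and Slc6a9, the glycine carrier GlyT1, -0.08 (exact permutation p = 0.603).

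MSC 3 and MSC 4 were also the arrays with the most signal from fat around the kidney. Of the 9 fat genes listed, 6 passed the filter, with a median log2 fold change of 1.33, and their summed intensity was 81879 in MSC 3 and 42616 in MSC 4 against 8414 to 16533 in the other 7 arrays. The others, Lep, Plin1 and Lipe, were well above background on 0, 1 and 3 arrays. Ucp1, which marks brown fat, read 14.35 in MSC 3 and 12.92 in MSC 4 against 7.99 to 11.07 elsewhere. Over the 7 arrays without these 2, the r of Slc1a3 with the fat list was 0.63. Slc36a2 (PAT2), a proton-coupled carrier of glycine and proline that the kidney and brown fat cells share, did not pass the filter. Its probe read 9.87 in MSC 3 and 8.79 in MSC 4, the only arrays where it was well above background, and 7.72 to 8.002 in the other 7. Slc7a10, a light chain also known from white fat, did not follow: it read 8.69 in MSC 3 and 8.03 in MSC 4 against 8.20 to 8.76 in NP kidneys, and did not pass the filter. Without MSC 3 and MSC 4, 3 members were higher at an unadjusted limma p under 0.05, Slc43a2, Slc7a7 and Slc7a12, and 0 were lower (3.82% and 2.69% of all genes in that fit), with no member past the FDR. The part of fat in these results was not tested.

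**Figure D4:**
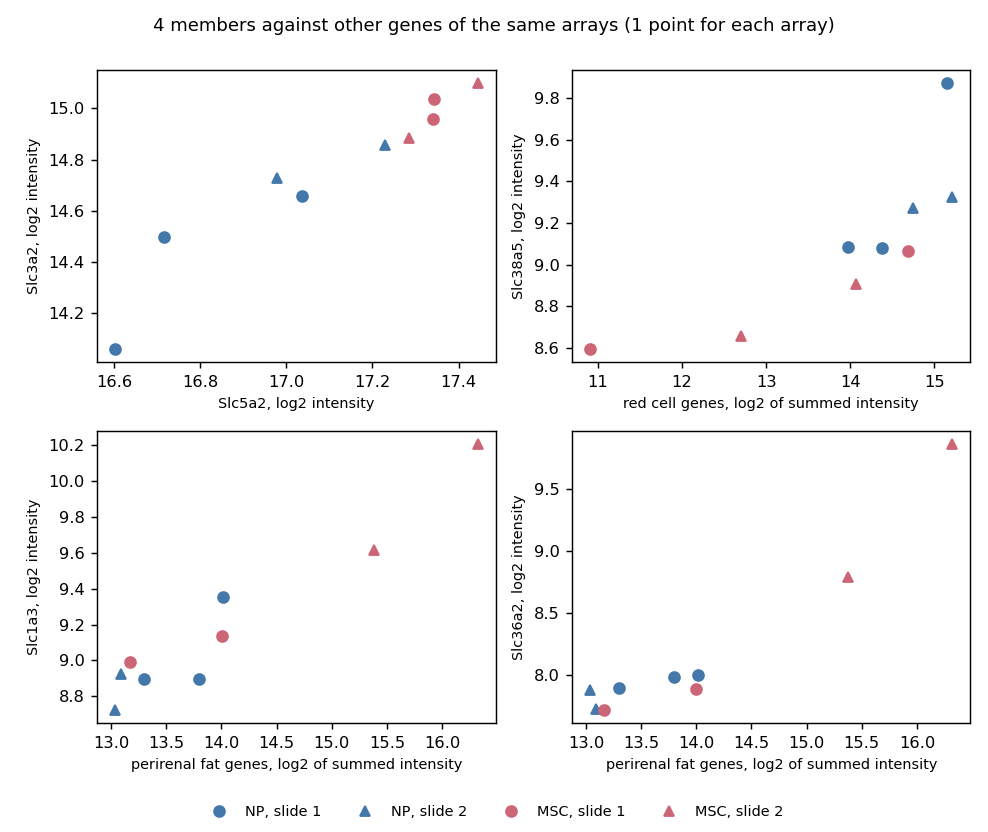
Normalized log2 intensity of 4 members (vertical axes) against other genes of the same arrays (horizontal axes, log2), 1 point for each kidney, coloured by group and shaped by slide. Slc3a2 follows Slc5a2 from 14.06 to 15.10, Slc38a5 is lowest in the 2 MSC kidneys with the least red cell signal, and Slc1a3 and Slc36a2 are highest in MSC 3 and MSC 4, the arrays with the most fat signal.

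The remaining members that were tested were Slc7a12 at 0.37 (exact permutation p = 0.135), Slc38a6 at 0.10, Slc38a10 at 0.02, Slc7a6os at 0.01 and Slc43a3 at -0.09 on the log2 scale. Slc43a3 turned sign without NP 2 (0.09) or MSC 2 (0.01). Slc7a12 belongs to the light chains by sequence, and it was lowest in NP 1 and NP 3, at 13.70 and 13.78.

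Of the 27 members without a passing probe, 12 were not well above background on any array, 13 were on some arrays and 2, Slc7a5 and Slc36a1, on all 9. The 12 included the neuronal carriers Slc6a5, Slc6a7, Slc6a11 and Slc1a6, the cationic carriers Slc7a2 and Slc7a3, and Slc6a14, Slc6a15, Slc6a16, Slc36a3 and Slc7a14. The other 13 were Slc1a2, Slc1a7, Slc36a2, Slc38a4, Slc38a8, Slc38a11, Slc43a1, Slc6a2, Slc6a3, Slc6a4, Slc7a4, Slc7a10 and Slc7a15.

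Genes that work with the transporters were taken from lists. The list of regulators held 8 names, of which Cltrn is another name of Tmem27 and does not stand on the array. The other 7 were all tested, and 0 were at an unadjusted limma p under 0.05. The closest was Arl6ip5, an inhibitor of glutamate uptake by Slc1a1, with 0.50 (limma adjusted p = 0.428). Pdzk1, a scaffold of the brush border, had 0.16 and Sgk1, a kinase that raises several carriers, 0.08. The list of other carriers of amino acids and peptides held 15 names. Among them Pqlc2 and Slc66a1 name the same gene, and neither stands on the array. Of the list 10 were tested, with a median log2 fold change of 0.11. Only Slc32a1, which loads GABA and glycine into vesicles, was higher at an unadjusted p under 0.05 (0.48, limma adjusted p = 0.404). The peptide carrier Slc15a1 had 0.26 (limma adjusted p = 0.481) and Slc16a10 (TAT1), the basolateral carrier of aromatic amino acids, 0.10 (limma adjusted p = 0.832).

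Cells that lack amino acids raise a set of genes through the kinase Eif2ak4 (GCN2) and the factor Atf4, several transporters among them. Of the 11 genes of this list all 11 were tested, 0 were higher and 3 lower in MSC samples at an unadjusted limma p under 0.05, against 5.1% of all genes that were lower. They were Chac1, which breaks down glutathione (-0.39, limma adjusted p = 0.333, every MSC value below every NP value), Ddit4, an inhibitor of mTORC1 (-0.65, limma adjusted p = 0.335), and Trib3, a pseudokinase that restrains Atf4 (-0.60, limma adjusted p = 0.392). Asns, the asparagine synthetase, had 0.12 and Atf4 itself 0.11, and the median of the list was -0.10.

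The core of the amino acid response element, TGATGNAA on either strand, was looked for in the promoters from 250 bases before to 50 after the start of each gene (RefSeq, build GRCr8). It stood in 3.98% of all 33469 promoters and in 3 of the 26 tested members that had an entry: Slc38a1, Slc7a1 and Slc1a4. They are shown because these are the tested members that hold the core. The core is in capitals, with up to 20 bases on each side in lower case, written along the strand of the gene.
Slc38a1: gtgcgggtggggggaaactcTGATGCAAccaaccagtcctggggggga
Slc7a1: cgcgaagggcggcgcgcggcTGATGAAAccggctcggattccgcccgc
Slc1a4: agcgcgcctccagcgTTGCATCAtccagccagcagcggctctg
They lie at chr7:129681516-129681563 on the minus strand, at chr12:11664438-11664485 on the plus strand and at chr14:98761770-98761812 on the minus strand, with the core beginning 142, 30 and 235 bases before the start. The log2 fold changes of these genes were -0.19, 0.12 and -0.03. Another motif searched in the same way, TCACGTGA, which lies in the element that TFEB binds in lysosomal genes, stood in 0.777% of all promoters and in that of 1 member, Slc36a1, which was not tested. A match of letters is a description and not a site.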

How the data were processed

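For each 1-colour array the authors deposited the scanner output that Agilent Feature Extraction gave, with raw intensity values of 58717 gene spots and 308 negative controls. They also deposited a table of log2 values that they had normalized between arrays with limma. Here the mean pixel intensity was log2 transformed and normalized by cyclic loess without background subtraction (limma 3.58.1, R 4.3.3), after spots with outlier flags had been left out. Set against the authors' deposited log2 table, each array correlated with Pearson's r between 0.999899 and 0.999973 (15836 probes). A probe was kept where its log2 value was over 1.1 times the 95th percentile of the log2 negative controls on at least 4 arrays, which can lower the number of weak genes tested. Repeated spots were averaged, and where a gene had several probes the most variable stood for it. MSC and NP samples were compared with limma's empirical Bayes test over 13929 genes, with the Benjamini-Hochberg FDR. Single members had an exact two-sided permutation test over the 126 splits of the arrays. Each array stands for 1 kidney, their number limits the precision, and no column of values per sample was left unused (0 columns).

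The members and lists were chosen with earlier results of these data known. Members are named by the highest mean intensity in a family (only to choose names, since probes differ in response), an unadjusted p under 0.05 in limma, values without overlap, or a list of 22 renal transporters, and the remaining members are named or counted. Some items are not reported here. Of 74 probes, 68 matched an accession of a current RefSeq table (GRCr8), where 1 carries another name. The steps were tested on simulated data. As alternatives, the intensity column, normalization, filter, choice of probe, variance model and block were exchanged, or arrays left out. Replicate numbers were not taken as pairs of kidneys. The correlation of the deviations of same-numbered arrays ranged from -0.35 to 0.32, which cannot settle whether those kidneys were handled together. A discarded MSC array and the authors' own comparisons were not used here.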

Additional observations from a re-analysis of the deposited data

Results flagged for a closer look

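In 3 of 46 groups of values of the named members, 1 kidney lay far from the others by Dixon's ratio, the gap to the nearest value divided by the range, where chance would give 2.3. Slc38a2 had its lowest NP value in NP 1 (12.54 against 12.80 to 12.91, ratio 0.711). Slc6a18 also had its lowest in NP 1 (12.63 against 12.95 to 13.08, ratio 0.716). Slc6a8 had its lowest in NP 3 (16.21 against 17.07 to 17.32, ratio 0.773).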

How the results depend on the processing

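The count of members past the FDR and the fold change stayed at 0 in limma under all 27 alternatives, in both directions, while 0.0144% of all genes were higher past both with array weights, and the smallest FDR of a member ranged from 0.115 with array weights to 0.806 with median scaling. The 7 members higher at an unadjusted p under 0.05 (6.6% of all genes) became 1 with median scaling (2.07%), 3 without MSC 3 and 4 together (3.82%), 1 without MSC 1 and 3 together (4.06%, chosen after seeing the data), and 4 to 8 with each array left out in turn (4.93% to 7.36%), with 4 without NP 3 (5.43%) and 4 without MSC 3 (5.24%). The 1 lower member (5.1%) became 2 with normexp background (5.07%), median scaling (4.03%), no filter (4.03%) and the replicate block (5.03%), 0 without MSC 3 and 4 together (2.69%) or without MSC 1 and 3 together (2.33%), and 1 to 2 with each array left out (3.30% to 9.28%, the highest without NP 1). With the replicate block 5 members were higher (6.27%); only MSC 1 and MSC 2 correlated best with the NP kidney of their own number. Under the median scaling the median of all genes was -0.04, and the cause of the lower count was not tested. Slc43a2 was at an unadjusted limma p under 0.05 in 25 of 27 alternatives, Slc3a2 in 24, Slc7a8 in 23 and Slc7a7 in 21. Slc1a5 was in 17 and Slc1a3 in 16, and each of these kept its direction in all 27. Slc38a5 (25) and Slc38a9 (12) also kept theirs, but both entered the test through the group where they were higher. Their counts therefore give no support to a difference. Slc6a18 was 0.19 with the probe used and -0.11 with its brightest probe. It was -0.19 with median scaling, where the other probe was the most variable, so that the scaling and the probe changed together. With no filter, Slc43a1 and Slc7a4, near background, were also higher at an unadjusted p (0.24 and 0.28). With each array left out in turn, Slc7a7 passed 1.5-fold without NP 5 or MSC 4 (0.63 each), Slc38a5 without MSC 2 (-0.61) and Slc1a3 without NP 1, MSC 1 or MSC 2 (0.63, 0.69 and 0.65), while Slc1a3 was 0.29 without MSC 3.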
